A study of Mus musculus with 12 samples.

Results

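The transcripts of 10 VEGF and angiopoietin ligands and receptors were followed across 12 libraries of mouse white matter. They were Vegfa, Vegfb and Vegfc, the VEGF receptors Flt1 (VEGFR1) and Kdr (VEGFR2), the VEGF co-receptor Nrp1, the angiopoietins Angpt1 and Angpt2, and the angiopoietin receptor Tek (Tie2) with its partner Tie1. The 10 genes were taken by symbol from the 24060 genes of the deposited count table, where all 10 were listed.

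The mice carried Tie2-Cre and Rpl22-HA, an allele in which Cre adds a hemagglutinin (HA) tag to the ribosomal protein Rpl22, so that immunoprecipitation with anti-HA (IP) gathers RNA on the ribosomes of cells that have at some time expressed Tek. Because the Tek promoter drives Cre, tagging follows past expression of one of the genes described here, and the Tie2 lineage is known to include some blood cells as well as endothelia. All mice were male, and none was stated to have had another treatment. Animals 489, 555 and 556 ate the control-fat diet, in which fat supplies 10% of the kcal (CFD), and animals 516, 517 and 676 the high-fat diet, in which it supplies 60% (HFD), and each animal gave 1 IP and 1 input library, which makes 4 groups of 3. The age of these transgenic mice and the duration of the diet were not given in the sources used here.

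VEGF ligands bind receptor tyrosine kinases on endothelial cells. Vegfa signals mainly through Kdr, while Flt1 binds Vegfa and Vegfb tightly, signals weakly and also exists as a soluble decoy. Angpt1 activates Tek and steadies vessels, Angpt2 competes with it at the same receptor, and Tie1 modulates that receptor. In brain, Vegfa is known mainly as a product of astrocytes and other parenchymal cells, and the receptors as products of endothelia.

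Library totals ran from 19567186 to 33660708 counts, and a library detected from 12793 to 16427 genes. Rn45s, the ribosomal RNA precursor, held 38.7% to 42.3% of the counts in CFD IP, 17.1% to 19.1% in HFD IP, 8.60% to 14.2% in CFD input and 6.34% to 9.29% in HFD input. The tagged gene Rpl22 had 422 to 2384 counts. Endothelial markers were scarce in the pulldown. Of 14 listed, 4 to 7 exceeded 3 counts in an IP library and 6 to 14 in an input library, and Erg and Sox17 exceeded 3 counts in no IP library. Their summed level ran from 4.45 to 215 CPM (counts scaled to a common library size and corrected for library composition) in IP and from 12.7 to 41.3 CPM in input, and the top value came from the IP of animal 556. All 8 neuron, 8 astrocyte and 7 oligodendrocyte markers exceeded 3 counts in every IP library. Summed neuron markers ran from 5172 to 10244 CPM in IP and from 7523 to 12621 CPM in input, which overlap. Of 8 blood markers, 7 exceeded 3 counts in no IP library and 5 in no input library. Their summed level ran from 0.033 to 3.61 CPM in IP and from 3.22 to 21.3 CPM in input. Summed microglia and macrophage markers ran from 118 to 281 CPM in IP and from 95.7 to 183 CPM in input, which overlap. The pulldown is called IP below.

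The 10 genes fell into 3 that every library measured and 7 that were scarce. Vegfa, Vegfb and Nrp1 exceeded 3 counts in all 12 libraries, as did 9153 of the 14354 genes with enough counts to be tested (63.8%). The other 7 each had a library at 0, and of their 42 values in each fraction, 22 in IP and 12 in input were at or under 3 counts. A count of 0 allows a level of up to 0.0834 to 0.168 CPM, depending on the library, for counting error only. Tie1 had too few counts to pass the filter, so 9 of the 10 genes entered the tests.

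The promoter sequences shown were chosen after the IP levels were seen. They are those of the ligands Vegfa and Vegfb, the members whose IP levels in CPM did not overlap between diets. Each is the window of 250 bases before the RefSeq start on the minus strand of GRCm38.p6 (mm10), and capitals mark GCGTG, a core of the hypoxia response element, or CACGC where it lies on the other strand. Gene positions below are on the same build. The Vegfa window lies at chr17:46032378-46032627 and Vegfb at chr19:6987652-6987901.
Vegfa: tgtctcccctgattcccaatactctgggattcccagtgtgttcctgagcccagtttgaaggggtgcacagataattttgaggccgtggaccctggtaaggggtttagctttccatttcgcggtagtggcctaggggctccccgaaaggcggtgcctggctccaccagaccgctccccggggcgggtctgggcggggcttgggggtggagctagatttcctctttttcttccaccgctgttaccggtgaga
Vegfb: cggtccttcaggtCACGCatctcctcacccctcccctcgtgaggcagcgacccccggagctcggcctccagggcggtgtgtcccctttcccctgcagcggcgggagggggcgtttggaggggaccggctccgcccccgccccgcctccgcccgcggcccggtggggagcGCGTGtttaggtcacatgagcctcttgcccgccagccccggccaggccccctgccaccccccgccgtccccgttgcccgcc
The Vegfb window had 2 matches, whose first bases lay -237 and -81 from the start, and the Vegfa window had none of GCGTG or ACGTG, the other core searched. Among 32851 windows of this length, 28.2% held GCGTG, 16.6% ACGTG and 38.6% either. A second Vegfa start, inside the gene, has a window with 1 match of each motif, which overlaps an annotated exon and is not printed. The GC content was 59.2% in the Vegfa window and 76.4% in the Vegfb window. These matches describe letters and not bound sites. Only the 250 bases before each start were searched, so a motif further upstream would not be seen.

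Per kilobase of gene length, ligands and the co-receptor led. Averaged over all 12 libraries, Vegfb stood at 39.4 ± 29.5 CPM per kb, Vegfa at 9.43 ± 4.91 and Nrp1 at 8.86 ± 3.72 (SD, n = 12). Vegfb exceeded Vegfa in 12 of 12 libraries. Vegfa exceeded Nrp1 in 7 of 12, so these neighbours did not differ beyond their spread. In every library the lowest of these 3 exceeded the highest of the other 7. Then followed Vegfc at 0.557 CPM per kb, Angpt2 at 0.497, Flt1 at 0.482, Kdr at 0.368, Angpt1 at 0.286, Tek at 0.163 and Tie1 at 0.0480, with an SD at least as large as the mean for all of these but Kdr, whose SD was 0.343. No neighbours among the 7 kept one order in all 12 libraries, and Flt1 exceeded Kdr in 3 of 12 despite its higher mean.

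Vegfa, on chromosome 17 at 46016993 to 46032377, encodes the main angiogenic ligand. In CFD IP it had 258, 330 and 137 counts in animals 489, 555 and 556, or 13.3, 15.9 and 7.68 CPM. In HFD IP it had 1002, 1158 and 736 counts in animals 516, 517 and 676, or 34.7, 38.2 and 22.4 CPM. All HFD IP libraries lay above all CFD IP libraries. The means were 31.8 ± 8.31 and 12.3 ± 4.23 CPM (SD, n = 3 each), with a log2 difference of 1.37 (SE 0.720, 95% interval -0.13 to 2.86). The p was 0.0706, or 0.489 as adjusted by edgeR. In bulk RNA, a change in the number of cells of a type and a change in RNA per cell cannot be told apart.

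In the whole tissue Vegfa did not separate by diet. The CFD inputs of animals 489, 555 and 556 had 645, 529 and 755 counts, and the HFD inputs of animals 516, 517 and 676 had 581, 1521 and 591. Animal 517 stood above the rest, at 55.1 CPM, and the diets overlapped. The log2 difference between inputs was 0.32 (SE 0.707, edgeR adjusted p 1.0). On CFD, the 3 IP libraries lay below the 3 input libraries, at 24.6 ± 5.17 CPM in input (SD, n = 3), with a log2 difference of -0.998 (SE 0.714, edgeR adjusted p 0.601). On HFD, IP and input overlapped and the log2 difference was 0.05 (SE 0.706). The interaction of diet and fraction was 1.05 (SE 1.002). The p was 0.307, or 0.950 as adjusted by edgeR.

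Vegfb, on chromosome 19 at 6982472 to 6987651, encodes a ligand of Flt1 that is not a strong inducer of vessel growth. In CFD IP it had 613, 2522 and 826 counts in animals 489, 555 and 556, or 31.7, 122 and 46.3 CPM. In HFD IP it had 656, 758 and 500 counts in animals 516, 517 and 676, or 22.7, 25.0 and 15.2 CPM. In CPM, all HFD IP libraries lay below all CFD IP libraries, and the nearest were those of animals 517 and 489. This order rested on the library scaling, whose factors were 0.968 and 0.687 in these IP libraries. Set against their total counts alone, of 31294504 and 28138509, animal 489 would lie below animal 517. The log2 difference was -1.67 (SE 0.660, 95% interval -3.03 to -0.30). The p was 0.0193, or 0.383 as adjusted by edgeR. Without animal 555, whose IP held 61.0% of the CFD IP level, it was -0.89 (edgeR adjusted p 0.541).

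The Vegfb inputs overlapped between diets. Counts were 2479, 437 and 1712 in the CFD inputs of animals 489, 555 and 556 and 1897, 766 and 847 in the HFD inputs of animals 516, 517 and 676, and the log2 difference was -0.74 (SE 0.646). Animal 555 had the lowest input and the highest IP of the 12 libraries in counts. On HFD, the 3 IP libraries lay below the 3 inputs, at 21.0 ± 5.13 against 36.9 ± 13.8 CPM (SD, n = 3 each), with a log2 difference of -0.81 (SE 0.647, edgeR adjusted p 0.927). Within animals, Vegfb was lower in IP than in input in 5 of 6, animal 555 being the exception.

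Nrp1, on chromosome 8 at 128358591 to 128505476, encodes a co-receptor for Vegfa and for class 3 semaphorins and is also found on axons. In CFD IP it had 1263, 610 and 537 counts in animals 489, 555 and 556, and in HFD IP 2198, 1445 and 2683 in animals 516, 517 and 676. The groups overlapped, since animal 489 at 65.3 CPM stood above animal 517 at 47.7 CPM. The log2 difference was 0.72 (SE 0.552, 95% interval -0.43 to 1.86, edgeR adjusted p 0.633). Inputs had 1229, 534 and 1529 counts on CFD and 1371, 1244 and 2483 on HFD, in the same order of animals. Between IP and input over both diets the log2 difference was 0.12 (SE 0.389, 95% interval -0.69 to 0.92).

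**Figure D1:**
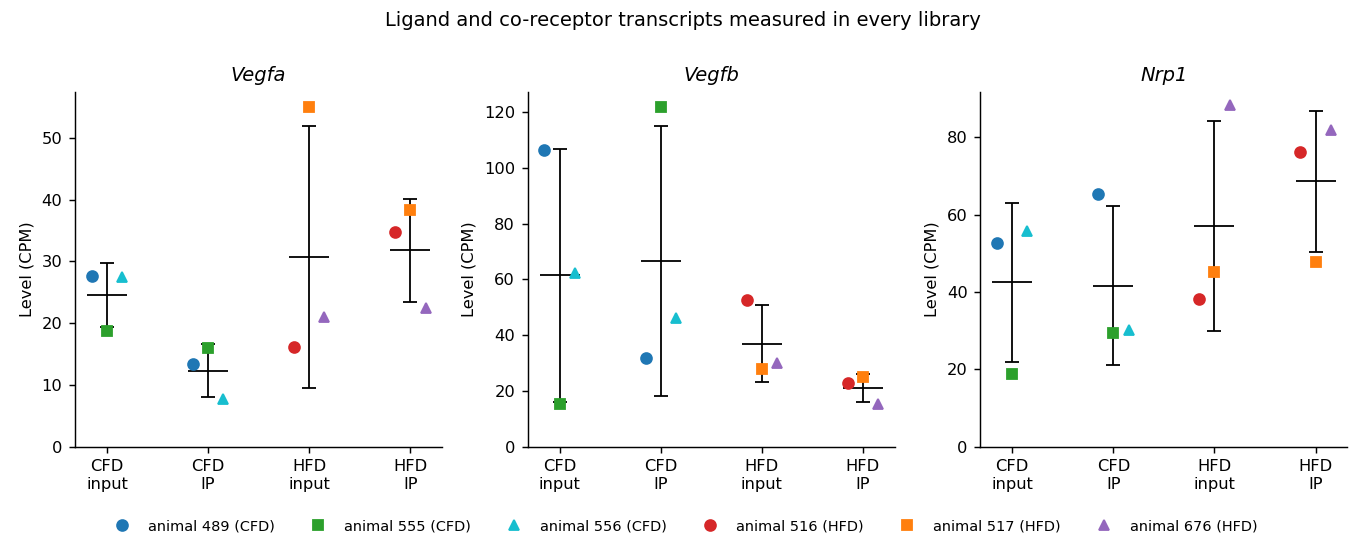
Level of Vegfa, Vegfb and Nrp1 in CPM in each of the 12 libraries (points, by animal) for CFD input, CFD IP, HFD input and HFD IP, with the group mean and SD (bars, n = 3). HFD IP lay above CFD IP for Vegfa (31.8 against 12.3 CPM) and below it for Vegfb (21.0 against 66.6 CPM), and the groups overlapped for Nrp1.

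The 2 ligands were then set against each other within a library, a measure that no library scaling changes and that was chosen after their values were seen. Vegfa over Vegfb, in CPM per kb, was 0.188, 0.0586 and 0.0743 in the CFD IP of animals 489, 555 and 556. In the HFD IP of animals 516, 517 and 676 it was 0.684, 0.684 and 0.659. The HFD IP values lay close together and all above those of CFD IP. That separation was fixed by the choice, since every HFD IP library lay above CFD IP in CPM for Vegfa and below it for Vegfb. In the inputs it was 0.117, 0.542 and 0.198 on CFD and 0.137, 0.889 and 0.312 on HFD, which overlap. The log2 ratio was higher in HFD IP by 2.85, a 7.22-fold difference. It was higher by 2.51 to 3.36 when any 1 library was left out, and its sign there was fixed in the same way. Between inputs the log2 difference was 0.54, and it ran from -0.16 to 1.18 when any 1 library was left out. A permutation test of the log2 ratio between diets was run. As the ratio was chosen from these values, its outcome in IP was fixed beforehand, and no p is given.

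**Figure D2:**
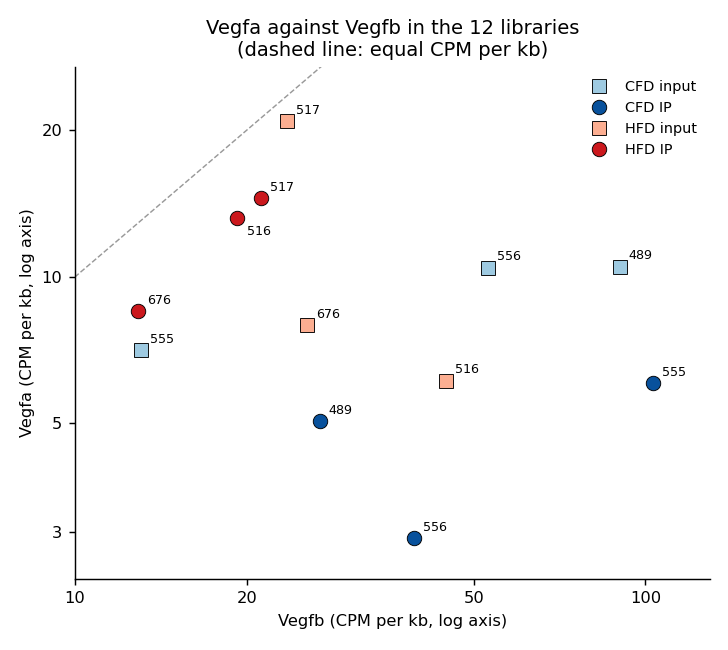
Vegfa against Vegfb in CPM per kb on log axes, with 1 point per library, coloured by group and labelled by animal. The 3 HFD IP libraries lie near each other at a ratio of 0.659 to 0.684, the 3 CFD IP libraries at 0.0586 to 0.188, and all 12 lie below the dashed line of equal level.

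The IP libraries also differed by diet in other ways. The Rn45s share of the counts did not overlap between CFD IP and HFD IP, as given above. Nor did the factors that correct CPM for library composition, at 0.606 to 0.698 in CFD IP and 0.858 to 1.13 in HFD IP. With Rn45s and Lars2 left out, the log2 difference was 1.34 for Vegfa and -1.69 for Vegfb. Summed astrocyte markers ran from 4431 to 10487 CPM in CFD IP and from 4507 to 8424 CPM in HFD IP, and summed endothelial markers from 4.45 to 215 CPM and from 8.85 to 71.0 CPM. Summed neuron markers ran from 5172 to 9038 CPM in CFD IP and from 8625 to 10244 CPM in HFD IP, and each of these marker sums overlapped between diets. Their part, and that of Rn45s, in the ligand levels was not tested.

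Vegfc, on chromosome 8 at 54077532 to 54186454, encodes a ligand of the lymphatic receptor Flt4 that also binds Kdr. In CFD IP it had 58 counts in animal 489 and 0 in animals 555 and 556, and in HFD IP 1, 50 and 100 counts in animals 516, 517 and 676. The inputs had 7, 48 and 22 counts on CFD and 4, 9 and 45 on HFD. Values within a group differed more than the group means, and the log2 difference between HFD IP and CFD IP was 0.66 (SE 2.403).

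The receptor Flt1, on chromosome 5 at 147561604 to 147726438, was scarce except in a pair of libraries. It encodes the receptor that binds Vegfa and Vegfb most tightly. It had 685 counts in the HFD IP of animal 517, and in animal 676 its HFD input had 333. The other HFD IP libraries had 2 counts in animal 516 and 17 in animal 676, and the HFD inputs of animals 516 and 517 had 0. On CFD it had 7, 0 and 1 counts in the IP and 6, 6 and 10 in the input of animals 489, 555 and 556. Animal 517 thus had the highest IP and 0 in its own input, and animal 676 the highest input with 17 in its IP.

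The fitted log2 difference of Flt1 between HFD IP and CFD IP was 5.75 (SE 2.79, 95% interval -0.03 to 11.53). The p was 0.0511, or 0.459 as adjusted by edgeR. The IP of animal 517 held 97.5% of the HFD IP level. Without that animal the log2 difference was 1.05 (edgeR adjusted p 0.941). Between the inputs it was 3.80 (SE 2.53), with all of the HFD input level in animal 676.

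Kdr, on chromosome 5 at 75932827 to 75979072, encodes the main signalling receptor for Vegfa. On CFD it had 98, 103 and 145 counts in the inputs of animals 489, 555 and 556 and 24, 42 and 0 in their IP libraries. The CFD inputs lay close together, at 4.38 ± 0.841 CPM (SD, n = 3), and all lay above the IP libraries, at 1.09 ± 1.02 CPM (SD, n = 3). The log2 difference of CFD IP from CFD input was -2.00 (SE 2.22, 95% interval -6.60 to 2.60). The p was 0.377, or 0.769 as adjusted by edgeR. On HFD the inputs had 36, 0 and 114 counts and the IP libraries 62, 1 and 15 in animals 516, 517 and 676, which overlap. Between HFD IP and CFD IP the log2 difference was -0.31 (SE 2.14).

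Tek, on chromosome 4 at 94739086 to 94874976, is both the angiopoietin receptor and the gene whose promoter drives Cre. In IP it had 0, 0 and 80 counts in animals 489, 555 and 556 on CFD and 0, 1 and 43 in animals 516, 517 and 676 on HFD. In input it had 4, 3 and 0 counts on CFD and 13, 0 and 76 on HFD. The animal with the highest IP, 556, had 0 in its input, and 4 of 6 IP libraries were at or under 1 count. The log2 difference of IP from input over both diets was 1.39 (SE 1.94, 95% interval -2.63 to 5.40). Its edgeR adjusted p was 0.821. Without animal 556 it was -3.08.

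Tie1, on chromosome 4 at 118471191 to 118489849, the partner receptor, reached 49 counts in the CFD input of animal 556, and animal 517 had 8 in its HFD input. In the 6 IP libraries it had at most 1 count, and in the other 4 inputs at most 2. At this depth a level of Tie1 in IP was not detectable. It entered the fit only without the count filter or without animal 489, 555 or 676, where its log2 difference of IP from input over both diets was -5.22 to -3.75, with edgeR adjusted p-values of 0.410 to 0.575. As its IP counts were at or near 0, these differences depend on the prior count and are no bound.

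Angpt1, on chromosome 15 at 42424667 to 42676977, the activating ligand of Tek, was measured in every input. It had 56, 10 and 95 counts in the CFD inputs of animals 489, 555 and 556 and 5, 37 and 13 in the HFD inputs of animals 516, 517 and 676. In IP it had 0, 11 and 98 counts on CFD and 0, 0 and 20 on HFD. The log2 difference of HFD from CFD was -3.27 (SE 2.57) in IP and -1.67 (SE 2.42) in input, with edgeR adjusted p-values of 0.641 and 1.0. The IP of animal 556 held 91.2% of the CFD IP level. Between HFD IP and CFD IP the log2 difference was -0.38 without animal 556 and -8.71 without animal 676.

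Angpt2, on chromosome 8 at 18690263 to 18741562, the competing ligand that endothelia release when activated, had 90, 5 and 1 counts in CFD IP and 5, 63 and 82 in HFD IP. Inputs had 61, 5 and 5 counts on CFD and 0, 0 and 240 on HFD. Each group had libraries near 0 beside libraries over 60 counts, and the log2 difference of HFD IP from CFD IP was -0.06 (SE 2.37, 95% interval -4.98 to 4.86). Angpt2 lies within the span of the protein-coding gene Mcph1, and whether counting used strand is not given in the sources used here. Kdr, Flt1, Vegfc, Nrp1 and Angpt1 each overlap 1 or 2 other annotated genes as well, while Tek, Tie1, Vegfa and Vegfb overlap none.

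**Figure D3:**
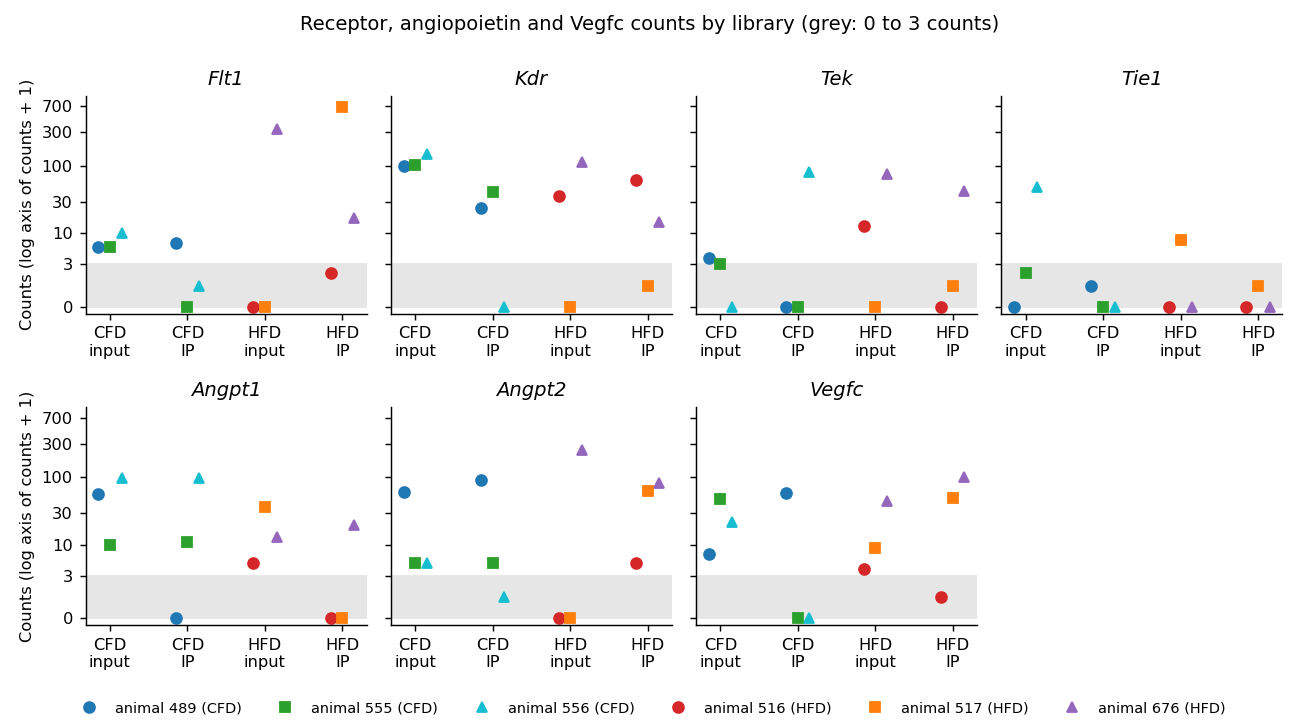
Counts of Flt1, Kdr, Tek, Tie1, Angpt1, Angpt2 and Vegfc in each library (points, by animal) for the 4 groups, on a log axis of counts plus 1, with the range of 0 to 3 counts in grey. Single libraries stand out, such as Flt1 at 685 counts in the HFD IP of animal 517 and at 333 in the input that came from animal 676 on HFD.

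The HFD input of animal 676 had the highest input CPM of 3 of the 7 scarce members, Flt1, Tek and Angpt2, and the CFD input of animal 556 that of 3 others, Kdr, Tie1 and Angpt1. The HFD input of animal 676 was the library in which all 14 endothelial markers exceeded 3 counts. Without animal 676 the log2 difference between inputs was -5.88 for Flt1 and -7.69 for Angpt2, against 3.80 and 1.52 with it. In IP, 3 of the 9 tested members had over 50% of the level of the 6 libraries in 1 library, as did 31.4% of all tested genes, and in input the numbers were 3 of 9 and 15.7%.

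The counts of members are set beside those of all tested genes. With edgeR's quasi-likelihood test, 0 of the 9 had an adjusted p under 0.1 between HFD IP and CFD IP, where 0.0557% of all tested genes did, and DESeq2 called 0 of them among its 770 genes. At an unadjusted p under 0.05 there was 1 of 9, Vegfb, against 10.9% of all genes. Of the members, groups did not overlap in CPM for 1 that was higher in HFD IP, Vegfa, where 5.94% of all genes were. They also did not overlap for 1 that was lower, Vegfb, where 4.66% of all genes were. For Vegfb this rested on the library scaling. The median log2 difference was -0.06 over the 9 members and 0.03 over all tested genes.

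Between IP and input, edgeR called 0 of 9 members on CFD, where 0.188% of genes were called, 0 of 9 on HFD, where 0.0139% were, and 0 of 9 over both diets, where 2.35% were. At an unadjusted p under 0.05 the members numbered 0 in each, against 11.8%, 6.51% and 13.9% of genes, and DESeq2 called 0 members in each, among 816, 160 and 996 genes. Kdr and Vegfa were the 2 members lower in CFD IP with no overlap, against 8.72% of genes, and Vegfb the 1 on HFD, against 7.98%. The CFD IP libraries enter both comparisons of Vegfa, and the HFD IP libraries both of Vegfb. No member was higher in IP with no overlap on either diet, against 6.43% of genes on CFD and 6.13% on HFD. None of the 9 lay on one side of its own input in all 6 animals. Of all tested genes, 4.09% were higher in IP in all 6 and 6.24% lower. Between the inputs and in the interaction, edgeR called 0 of 9 members and 0% of genes, and DESeq2 0 members among 31 and 121 genes. No member was apart from the other diet in the inputs, where 6.05% of genes were higher and 4.33% lower with no overlap, or in IP against input over both diets, where 0.752% and 0.55% were. In the inputs and the interaction 0 members had an unadjusted p under 0.05, against 2.03% and 5.36% of genes.

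**Figure D4:**
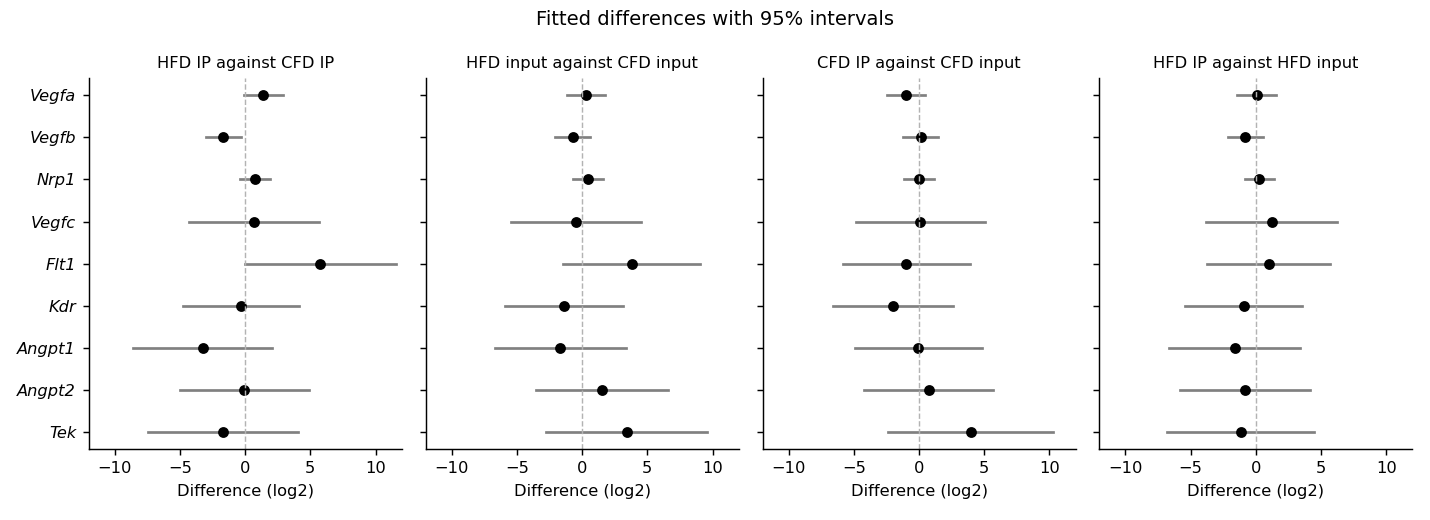
Fitted log2 differences (points) and 95% intervals (lines) of the 9 tested members in 4 comparisons, HFD IP against CFD IP, the inputs between diets, and IP against input on CFD and on HFD. In these 4 the intervals of Vegfa, Vegfb and Nrp1 are narrower than those of the other 6, and only that of Vegfb between HFD IP and CFD IP, -3.03 to -0.30, excludes 0 before adjustment.

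**Figure D5:**
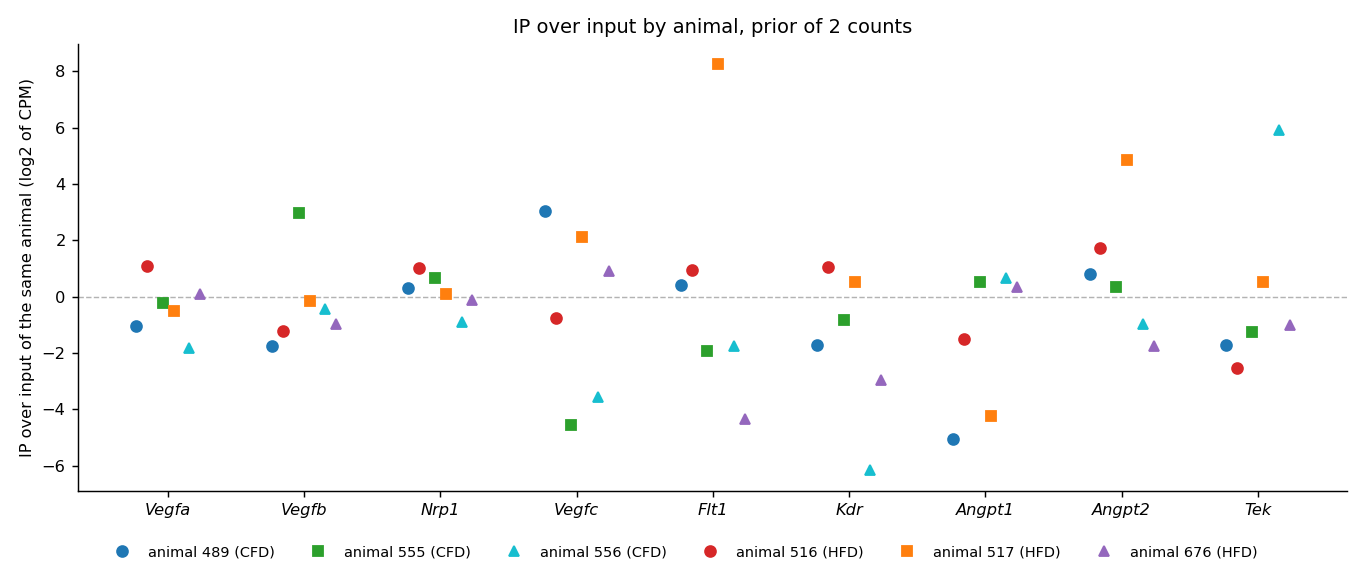
Log2 ratio of IP over input within each animal (points) for the 9 tested members, from CPM with a prior of 2 counts. None lies on one side of 0 in all 6 animals, and Vegfb lies below 0 in 5 of 6.

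Genes around these ligands and receptors were taken from 4 lists, of other family members, signal mediators, genes of the VEGF response and tip cells, and hypoxia factors with their targets. Of 65 genes listed, 57 were tested, and edgeR called 0 in each of the 6 comparisons at an adjusted p under 0.1. At an unadjusted p under 0.05 there were 4 between HFD IP and CFD IP, 8 between IP and input on CFD, 3 on HFD, 9 over both diets, 2 between inputs and 4 in the interaction. Over all tested genes the shares were 10.9%, 11.8%, 6.51%, 13.9%, 2.03% and 5.36% in that order. DESeq2 called 2, 3, 0, 4, 0 and 0 of the listed genes in the same order, among 770, 816, 160, 996, 31 and 121 genes in all. Between HFD IP and CFD IP the fitted log2 difference was positive for 6 of 9 other family members, 9 of 22 signal mediators, 5 of 10 genes of the VEGF response and 10 of 16 hypoxia genes, with medians of 0.58, -0.11, 0.16 and 0.17 against 0.03 over all tested genes. The genes named below are those with the smallest p in each direction, so their values describe the ends of the lists.

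Between HFD IP and CFD IP these were Notch1, Tnip2, Hey1 and Shc1. Notch1, the receptor that restrains tip cells, had a log2 difference of 2.26 (SE 0.802), with counts of 157 to 326 in CFD IP and 495 to 3209 in HFD IP and an edgeR adjusted p of 0.353. Hey1, a Notch target, had -1.67 (SE 0.622), and Shc1, an adaptor of receptor tyrosine kinases, had -3.38 (SE 1.32), with 3, 541 and 1707 counts in CFD IP from lowest to highest. Tnip2 had 3.60 (SE 1.72), with 2 to 40 counts in CFD IP and 60 to 613 in HFD IP. The edgeR adjusted p was 0.364 for Hey1, 0.376 for Shc1 and 0.452 for Tnip2. DESeq2 called Notch1 and Shc1, with adjusted p-values of 0.0527 and 0.0609.

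Between IP and input over both diets, Plxnd1, a semaphorin receptor of endothelia and neurons, had a log2 difference of 2.32 (SE 0.737, edgeR adjusted p 0.133). It was higher in IP in 6 of 6 animals, at 8.70 to 93.5 CPM in CFD IP against 0.599 to 15.3 in CFD input, and at 8.44 to 75.2 CPM in HFD IP against 4.56 to 11.2 in HFD input. Its IP exceeded its input by only 0.27 and 0.065 on the log2 scale in animals 517 and 676, against 2.49 to 4.02 in the other 4. DESeq2 called it with an adjusted p of 0.0219 and the fit with the animal as a block with 0.0914. Src, a kinase downstream of Kdr, had 1.31 (SE 0.440, edgeR adjusted p 0.162) and was higher in IP in 6 of 6 animals. Ankrd37, a hypoxia target, had -7.07 (SE 2.16, edgeR adjusted p 0.123), with 0 counts in 5 of 6 IP libraries and 17 in the other, against 0 to 427 in input. Nos3, the endothelial nitric oxide synthase, had -5.59 (SE 2.03, edgeR adjusted p 0.199). On CFD it had 0 counts in all 3 IP libraries and 0 to 30 in input, and on HFD 0 to 13 in IP and 37 to 321 in input. Within animals it was lower in IP in 5 of 6, and animal 555 had 0 in both. Besides Plxnd1, DESeq2 called Src, Ankrd37 and Vhl, a gene of the hypoxia list, with adjusted p-values of 0.0357, 0.0177 and 0.0449.

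Within one diet the ends of the lists were partly other genes. On CFD, Vhl, which directs the breakdown of hypoxia factors, had a log2 difference of 2.01 (SE 0.693) between IP and input, and Slc2a1, a hypoxia target that encodes the glucose transporter Glut-1, had 1.97 (SE 0.680, edgeR adjusted p 0.273 for both). The focal adhesion kinase Ptk2 had -1.40 (SE 0.582) and Ankrd37 had -9.10 (SE 3.38). DESeq2 called Vhl, Slc2a1 and Ankrd37. On HFD, Unc5b, a netrin receptor of tip cells, had 3.17 (SE 0.933, edgeR adjusted p 0.532), Src had 1.71 (SE 0.630), Ankrd37 had -5.04 (SE 2.70) and Nos3 had -4.50 (SE 2.67). Between inputs the ends were Cxcr4 at 7.56 (SE 3.53), Esm1 at 6.60 (SE 3.40), Unc5b at -2.19 (SE 0.897) and Ptk2 at -1.04 (SE 0.577), with edgeR adjusted p-values of 1.0. Cxcr4 and Esm1 had 0 counts in all 3 CFD inputs, as Ankrd37 and Nos3 had in all 3 CFD IP libraries, so their fitted values there depend on the prior count and are no bound. In the interaction the ends were Unc5b at 3.24 (SE 1.24), Notch1 at 2.49 (SE 1.10), Hey1 at -1.79 (SE 0.864) and Slc2a1 at -1.91 (SE 0.937). Adjusted by edgeR, these p-values lay between 0.872 and 0.896.

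Likeness across the 12 libraries was described by Pearson's r of log2 CPM, over libraries that share animals and, for scarce genes, rest on single libraries. The genes most like Vegfa were Hapln1 at r = 0.904, Osbpl10 at 0.881 and Ifrd1 at 0.871. For Vegfb they were Mybpc2 at 0.878, Ccdc11 at 0.838 and Slc4a2 at 0.832, and for Nrp1 Cpt1c at 0.901, 1700007F19Rik at 0.883 and Mapk1ip1 at 0.877. For Kdr they were Lrriq1 at 0.873, Abcc8 at 0.872 and Pcsk2os1 at 0.853. For the scarce Flt1, Tek, Angpt1, Angpt2 and Vegfc the leading genes were 1700001D01Rik at 0.921, Rtbdn at 0.931, Ociad2 at 0.907, Tmc3 at 0.893 and Pcdhga11 at 0.938. No member was among the 3 genes most like another. Between members, r was highest for Flt1 with Angpt2, at 0.736, and lowest for Vegfb with Vegfc, at -0.57. The receptor and ligand pairs had 0.211 for Flt1 with Vegfa, -0.31 for Flt1 with Vegfb, -0.05 for Kdr with Vegfa, 0.379 for Tek with Angpt1 and 0.191 for Tek with Angpt2.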

How the data were processed

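The authors aligned paired-end reads to mm10 with STAR, and the submitters' processing notes also name HTSeq. The labels name a Nugen Ovation kit and the methods a TruSeq kit with Ribo-Zero, and strand use in counting is not given in the sources used here. The deposited table holds whole-number counts per gene and library, not normalized. The authors also deposited FPKM, from which gene lengths were taken, and a normalized signal per library, not tested here. Columns of log2 fold changes and p-values, which the authors made with edgeR, hold their own comparisons and were not used.

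The deposited counts went into edgeR 4.0.16 (R 4.3.3). After filterByExpr (minimum count 10, minimum total 15) 14354 of 24060 genes were left, TMM set the library scaling, and glmQLFit with its earlier (legacy) estimator fitted the 4 group means. For each of 6 contrasts glmQLFTest gave p-values, adjusted by Benjamini-Hochberg across the 14354 genes, and calls are those below 0.1, the threshold of the study. At that threshold the study's own edgeR analysis reported more genes between HFD IP and CFD IP than the 8 called here. The standard error is the difference over the square root of F, and the 95% interval uses the t distribution with the fit's degrees of freedom. The common coefficient of variation was 101%. The fit was tested on simulated counts of independent libraries, with changes set only in genes of high level. That test does not cover the scarce members or the pairing of IP and input. Alternatives used DESeq2 1.42.0 and limma 3.58.1.

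As no molecular identifiers were stated, reads may be copies of one molecule and floors cover counting error only. Lists of markers and pathway genes, and the members, were chosen with earlier results of these data known. The genes named are all members, pathway-list genes that were called or had the 2 smallest p-values in a direction, and for each member the 3 genes with the highest r. IP and input of 1 number came from the same mouse, which pairs them: their deviations from the group mean of log2 CPM (prior count 2) had correlations of 0.0064 to 0.19 over genes, while different animals had a median of -0.018. Deviations cancel within a group, so the median of different animals is partly fixed by the same-animal values. No libraries of a group agreed within sampling noise (the lowest chi-square was 119 times its degrees of freedom). Sequences and coordinates come from RefSeq on GRCm38.p6, where 10 of 10 members matched by symbol, and 8 had a promoter entry.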

Additional observations from a re-analysis of the deposited data

How the results depend on the processing

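Under every alternative run, 0 members were called in any of the 6 comparisons, which are given throughout in the order HFD IP against CFD IP, CFD IP against CFD input, HFD IP against HFD input, IP against input over both diets, inputs between diets, and the interaction. With all animals, 306 of 324 member differences kept their direction. Over all genes, the calls numbered 8, 27, 2, 337, 0 and 0. They numbered 8, 27, 2, 350, 0 and 0 with RLE scaling, 219, 312, 79, 730, 3 and 44 without the count filter, and 5, 22, 0, 332, 0 and 0 with Rn45s and Lars2 left out. The bias-adjusted quasi-likelihood fit, added after seeing the data, called 46, 74, 18, 439, 0 and 1, and DESeq2 770, 816, 160, 996, 31 and 121. The replicate block, with the animal as a paired term (between diets, as a random term), called 5, 139, 24, 451, 0 and 0. Leaving out 1 animal gave 1 to 20, 2 to 52, 0 to 35, 7 to 430, 0 to 1 and 0 to 1, and over both diets 7 without animal 516, 24 without 556, 28 without 517 and 97 without 489. Genes of the pathway lists, of which 0 were called, numbered 2, 3, 0, 4, 0 and 0 with DESeq2. Without the filter 1 was called on HFD (Unc5b), 3 over both diets (Plxnd1, Unc5b and Ankrd37) and 1 in the interaction (Unc5b). Plxnd1 was the 1 called over both diets by the bias-adjusted fit and by the replicate block, and leaving out 1 animal gave 0 to 1 (Ankrd37 without animal 676).

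Some member directions turned, and the cause was not tested. In the replicate block the animal was a random term in limma between diets, and a paired term in edgeR in the other comparisons. With this block the log2 difference was 1.10 for Angpt2 between HFD IP and CFD IP. Between IP and input on CFD it was -1.62 for Tek, -0.013 for Angpt2, -4.69 for Vegfc and 0.028 for Nrp1, and on HFD 0.011 for Kdr and 4.005 for Angpt2. Over both diets it was 0.91 for Flt1, -1.50 for Tek, 1.996 for Angpt2 and -1.996 for Vegfc. Between inputs it was -1.03 for Flt1 and -1.86 for Angpt2, and in the interaction 0.24 for Tek and 4.02 for Angpt2. Over both diets Flt1 was at 0.0053 with Rn45s and Lars2 left out, and the bias-adjusted fit gave 0.040 for Flt1 and 0.093 for Angpt2.

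Leaving out 1 animal kept the direction in 279 of 324 cases. These include comparisons within a diet from which an animal of the other diet was left out. Such cases removed none of the compared libraries and could hardly turn. Where a direction turned, the log2 difference ranged between HFD IP and CFD IP from -2.16 to 0.51 for Kdr, -6.13 to 6.64 for Tek, -0.61 to 3.35 for Angpt2 and -0.24 to 8.45 for Vegfc. Between IP and input on CFD it ranged from -4.98 to 5.28 for Tek, -2.35 to 0.65 for Angpt1, -0.26 to 0.80 for Angpt2, -1.10 to 1.10 for Vegfb, -8.13 to 1.44 for Vegfc and -0.33 to 0.40 for Nrp1. On HFD it ranged from -4.30 to 11.20 for Flt1, -3.01 to 1.11 for Kdr, -7.27 to 0.028 for Angpt1, -1.67 to 7.88 for Angpt2, -0.35 to 0.62 for Vegfa and -0.051 to 0.58 for Nrp1. Over both diets it ranged from -2.64 to 5.11 for Flt1, -3.08 to 2.06 for Tek, -0.55 to 4.30 for Angpt2, -0.95 to 0.14 for Vegfb, -3.46 to 1.32 for Vegfc and -0.038 to 0.33 for Nrp1. Between inputs it ranged from -5.88 to 4.39 for Flt1, -7.69 to 3.92 for Angpt2, -0.41 to 0.64 for Vegfa, -2.07 to 0.32 for Vegfc and -0.029 to 0.68 for Nrp1. In the interaction it ranged from -3.33 to 12.18 for Flt1, -1.02 to 3.11 for Kdr, -7.07 to 3.80 for Tek, -7.22 to 0.70 for Angpt1, -2.40 to 7.15 for Angpt2, -1.92 to 0.30 for Vegfb, -0.23 to 9.35 for Vegfc and -0.14 to 0.60 for Nrp1. Between HFD IP and CFD IP the directions of Vegfa (1.12 to 1.60), Vegfb (-2.02 to -0.89), Nrp1, Flt1 and Angpt1 held under every alternative run, with adjusted p-values of 0.238 to 0.698 for Vegfa and 0.130 to 0.581 for Vegfb. Values of the 7 scarce members fall to 3 counts or fewer in some libraries, and the part of depth in this was not tested.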
